A study of Mus musculus with 14 samples.

Results

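The genes described here are 10 markers of blood vessel endothelium, the cells that line vessels, followed across liver tumours and normal liver of C3HeB/FeJ mice. Of these, 5 mark the sinusoidal endothelium of the liver (Lyve1, Stab1, Stab2, Fcgr2b and Clec4g) and 5 mark continuous vessels or endothelium in general (Cd34, Vwf, Pecam1, Cdh5 and Plvap). They were chosen by name from the 21431 gene symbols in the deposited table, and all 10 passed the filter on low counts that left 12300 features for testing. Liver sinusoids are unusual capillaries: their endothelium is perforated by open pores and rests on almost no basement membrane, and it clears waste molecules from blood through scavenger receptors. In liver disease and in hepatocellular carcinoma, sinusoids can take on features of continuous capillaries, with Cd34 on the endothelium and a basement membrane beneath it, a change known as capillarisation.

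RNA was sequenced from 14 pieces of liver tissue, all from male mice labelled 18 months of age, of an inbred strain prone to spontaneous liver tumours. The tumours were labelled Grow (6 samples) or Regress (4 samples), and 4 samples were normal liver. How growth or regression was scored was not given in the sources used here. Mice were checked for tumours at 10 months and were then injected on 5 consecutive days in every 28 days for 6 cycles. Of the growing tumours, Grow 1 and Grow 5 came from mice given DMSO, the solvent. Grow 2, Grow 3 and Grow 4 came from mice given SAHA, a histone deacetylase inhibitor, at 85 mg/kg with temozolomide (TMZ), a DNA-alkylating drug, at 22 mg/kg. Grow 6 was given SAHA alone at 100 mg/kg. Of the regressing tumours, Regress 1 and Regress 3 were given TMZ alone at 31 mg/kg, Regress 4 DMSO and Regress 2 phosphate citrate buffer, while all 4 normal livers came from mice given the same buffer. The samples carry no genetic alteration in their labels, and nothing states whether each came from a different mouse, so p-values cover the spread among these samples alone, which may be technical. One sample code in the labels is given to both Normal 4 and Regress 2. All are bulk tissue, so fewer endothelial cells and less RNA per cell cannot be told apart.

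Libraries held 4710000 to 13390000 estimated counts, the deepest being Grow 1, so that the rarest markers rest on few counts: at most 7 for Cd34 and 20 for Lyve1 in any normal liver. Grow 3 and Grow 4 were the most alike pair within a group but differed by more than sampling noise. Regress 1 stood apart from the other tumours in many markers described below. It had the lowest level among the 10 tumours for 5 of the 10 markers (Lyve1, Stab1, Cd34, Pecam1 and Cdh5).

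The markers were present in every group. Levels between genes are compared here as CPM, the estimated counts scaled to a library of 1000000 with TMM factors, per kilobase of transcript. In normal liver Clec4g, a lectin of sinusoidal endothelium, stood first at 46.1 ± 10.3 CPM per kilobase (SD, n = 4). It was followed by Plvap at 17.6 ± 3.87 and Fcgr2b at 16.2 ± 1.25 CPM per kilobase, a pair that did not differ beyond their spread. Stab2 (4.27 ± 1.08), Cdh5 (3.96 ± 1.22), Stab1 (3.31 ± 0.89) and Pecam1 (3.21 ± 1.1 CPM per kilobase) came next and overlapped one another. Lyve1 (0.548 ± 0.357), Vwf (0.303 ± 0.203) and Cd34 (0.279 ± 0.196 CPM per kilobase) were lowest in normal liver and also overlapped. Lyve1 thus sat well below the other sinusoidal markers in the normal livers, although it carries the sinusoidal label. The order of the tumours had the same gene at the top: Clec4g was first in growing tumours (25.0 ± 6.91 CPM per kilobase, n = 6) and in regressing tumours (53.0 ± 26.6, n = 4). Vwf was last in both, and Cd34 and Lyve1 lay among the middle and lower markers.

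Pecam1, Fcgr2b and Cd34 each had 2 transcript rows in the deposited table. The sequences in which the rows of each gene differ are shown because the tumours and the normal livers are compared by row further below. The sequences are read from GENCODE transcripts (release M21, build GRCm38), matched by RefSeq identifier, and are in the sense of the gene, 5′ to 3′, with 15 bases on either side of the difference. In Pecam1, exon 14 (chr11:106671742-106671798, minus strand, 57 bases, coding exon of the cytoplasmic tail, in capitals) is present in NM_008816 and absent from NM_001032378.
Pecam1 with exon 14: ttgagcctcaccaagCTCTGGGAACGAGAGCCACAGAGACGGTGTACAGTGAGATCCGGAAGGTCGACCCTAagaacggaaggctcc
Pecam1 without exon 14: ttgagcctcaccaagagaacggaaggctcc
In Fcgr2b, exon 6 (chr1:170963325-170963465, minus strand, 141 bases, a coding exon of the cytoplasmic tail, in capitals) is present in NM_001077189 and absent from NM_010187.
Fcgr2b with the tail exon: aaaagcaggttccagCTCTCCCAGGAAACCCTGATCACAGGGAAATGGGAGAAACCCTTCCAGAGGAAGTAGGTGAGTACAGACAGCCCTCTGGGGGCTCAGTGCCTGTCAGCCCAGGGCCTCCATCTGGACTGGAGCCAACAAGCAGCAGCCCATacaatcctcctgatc
Fcgr2b without the tail exon: aaaagcaggttccagacaatcctcctgatc
In Cd34, the truncated transcript NM_001111059 reads into 156 further bases in its exon 8 (chr1:194959780-194959794, plus strand, is the stretch after the join) and meets a stop codon, in capitals. The full-length transcript NM_133654 goes on with chr1:194959936-194959950.
Cd34 truncated: acaggagaaaggctggagctggaacctTGA
Cd34 full-length: acaggagaaaggctgggtgaagacccttat

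Against normal liver, 2 of the 10 markers rose in the tumours and none fell: Lyve1, a receptor for hyaluronan on sinusoidal and lymphatic endothelium, and Cd34, a sialomucin of continuous capillaries and of progenitor cells. Calls are at an adjusted p below 0.05 by edgeR's quasi-likelihood test with Benjamini-Hochberg adjustment over all 12300 features. In this comparison 2.32% of all features were called, 1.59% as higher and 0.732% as lower. The called pair thus has 1 gene of each class, and the other 4 sinusoidal and 4 continuous markers were not called. Over the 5 sinusoidal markers the median log2 fold change was -0.10 and over the 5 continuous markers 0.30, against 0.01 over all features tested. Lyve1 and Cd34 averaged less than the filter's cutoff of 1.63 CPM in normal liver and so passed it through the tumours, and without them the medians were -0.22 and 0.16.

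Lyve1 had 7.40 CPM at the lowest, 9.69 at the median and 24.6 at the highest of the growing tumours. In the regressing tumours it had 1.18, 29.5, 6.44 and 26.2 CPM in Regress 1 to Regress 4, against 1.76, 1.23, 0.448 and 2.91 CPM in Normal 1 to Normal 4. Every tumour except Regress 1 lay above every normal liver. The mean was 13.4 CPM in tumours and 1.58 CPM in normal liver, a log2 fold change of 3.09 ± 0.74 (SE, edgeR adjusted p = 0.0443).

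Cd34 had 3.87, 6.21 and 8.84 CPM at the lowest, median and highest of the growing tumours. In Regress 1 to Regress 4 it had 0.197, 16.0, 10.0 and 13.3 CPM, against 0.702, 1.05, 0 and 1.02 CPM in Normal 1 to Normal 4. Regress 1 was again the single tumour within the range of normal liver, and Cd34 was highest in the other 3 regressing tumours. The mean was 7.74 CPM in tumours and 0.693 CPM in normal liver, a log2 fold change of 3.49 ± 0.82 (SE, edgeR adjusted p = 0.0408).

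Both calls lie close to the threshold. Leaving out Regress 1 gave 3.28 for Lyve1 (edgeR adjusted p = 0.00625) and 3.69 for Cd34 (0.00259), with 7.84% of all features called. Leaving out Grow 2 kept both calls (2.91 and 3.53, adjusted p = 0.0466 and 0.0452, for Lyve1 and Cd34, with 2.69% of features called), while leaving out any single library other than these left 0 of the 10 markers called, with the direction of both genes kept. In the 4 tumours given neither TMZ nor SAHA against normal liver the log2 fold changes were 3.27 for Lyve1 (edgeR adjusted p = 0.00669) and 3.84 for Cd34 (0.0102), with 7.5% of features called.

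**Figure D1:**
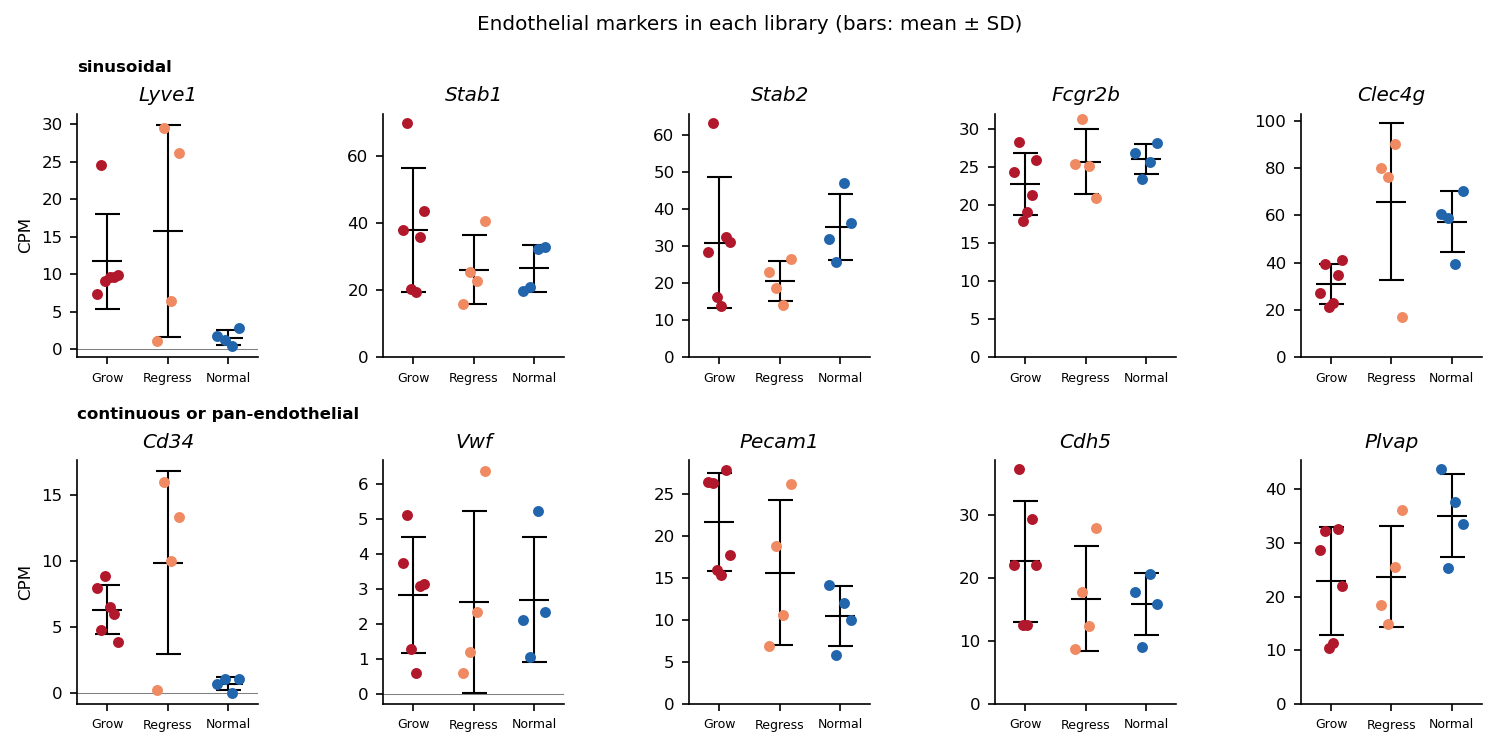
Level of each of the 10 endothelial markers in CPM (linear axes) in every library, with growing tumours (6), regressing tumours (4) and normal livers (4) from left to right; dots are libraries and bars are the mean ± SD. Lyve1 and Cd34 are low in all 4 normal livers and in Regress 1, while Fcgr2b covers nearly the same range in all groups.

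The other sinusoidal markers gave a different picture from Lyve1. Stab1 and Stab2 are scavenger receptors that take up hyaluronan, modified lipoproteins and other waste, and their ranges in tumours covered those in normal liver. Stab1 ran from 16.0 to 70.0 CPM in tumours and from 19.8 to 32.9 CPM in normal liver, with a log2 fold change of 0.25 ± 0.34 (edgeR adjusted p = 0.817). Stab2 ran from 13.9 to 63.2 CPM in tumours and from 25.8 to 46.9 CPM in normal liver (-0.48 ± 0.33, edgeR adjusted p = 0.522). Both were highest in Grow 2, as was Cdh5. Fcgr2b, the inhibitory receptor for immunoglobulin G through which sinusoidal endothelium removes immune complexes, was the steadiest of the 10. It had 17.9 to 31.4 CPM in tumours and 23.5 to 28.2 CPM in normal liver, a log2 fold change of -0.10 ± 0.17 (edgeR adjusted p = 0.862).

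Clec4g separated the tumours more than it separated tumours from normal liver. It had 21.0, 30.9 and 41.1 CPM at the lowest, median and highest of the growing tumours. In Regress 1 to Regress 4 it had 79.8, 76.3, 90.1 and 16.9 CPM, against 60.6, 58.7, 39.4 and 70.1 CPM in Normal 1 to Normal 4. Grow 6 and Normal 3 overlapped slightly, and 3 regressing tumours lay above every growing tumour and every normal liver while Regress 4 lay below all other libraries. For all tumours against normal liver the log2 fold change was -0.34 ± 0.34 (edgeR adjusted p = 0.707).

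Among the continuous and pan-endothelial markers, Pecam1, an adhesion molecule of endothelial junctions, platelets and leukocytes, averaged 19.2 CPM in tumours and 10.5 CPM in normal liver without passing the threshold. Its levels were 15.4, 22.0 and 27.9 CPM at the lowest, median and highest of the growing tumours. In Regress 1 to Regress 4 they were 6.90, 18.8, 10.6 and 26.2 CPM, against 14.2, 5.78, 12.0 and 10.0 CPM in Normal 1 to Normal 4. All 6 growing tumours lay above all normal livers, and 2 of the regressing tumours overlapped them. The log2 fold change of all tumours over normal liver was 0.81 ± 0.34 (edgeR unadjusted p = 0.0324, adjusted p = 0.223).

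Cdh5, the cadherin of endothelial junctions, had 8.67 to 37.2 CPM in tumours and 9.11 to 20.6 CPM in normal liver (log2 fold change 0.30 ± 0.35, edgeR adjusted p = 0.777). Vwf, the glycoprotein that tethers platelets and that marks larger vessels, had 0.590 to 6.35 CPM in tumours and 1.05 to 5.23 CPM in normal liver (0.02 ± 0.61, edgeR adjusted p = 0.993). With so few counts its estimate is wide and moved between -0.47 and 0.57 over the alternatives tried.

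Plvap, which forms the diaphragms of fenestrae and caveolae, had a mean of 23.2 CPM in tumours and 35.1 CPM in normal liver. It had 10.5, 25.3 and 32.5 CPM at the lowest, median and highest of the growing tumours. In Regress 1 to Regress 4 it had 18.5, 14.8, 25.5 and 36.1 CPM, against 43.7, 25.4, 37.7 and 33.5 CPM in Normal 1 to Normal 4. The groups overlapped, and the log2 fold change was -0.59 ± 0.32 (edgeR adjusted p = 0.376).

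**Figure D2:**
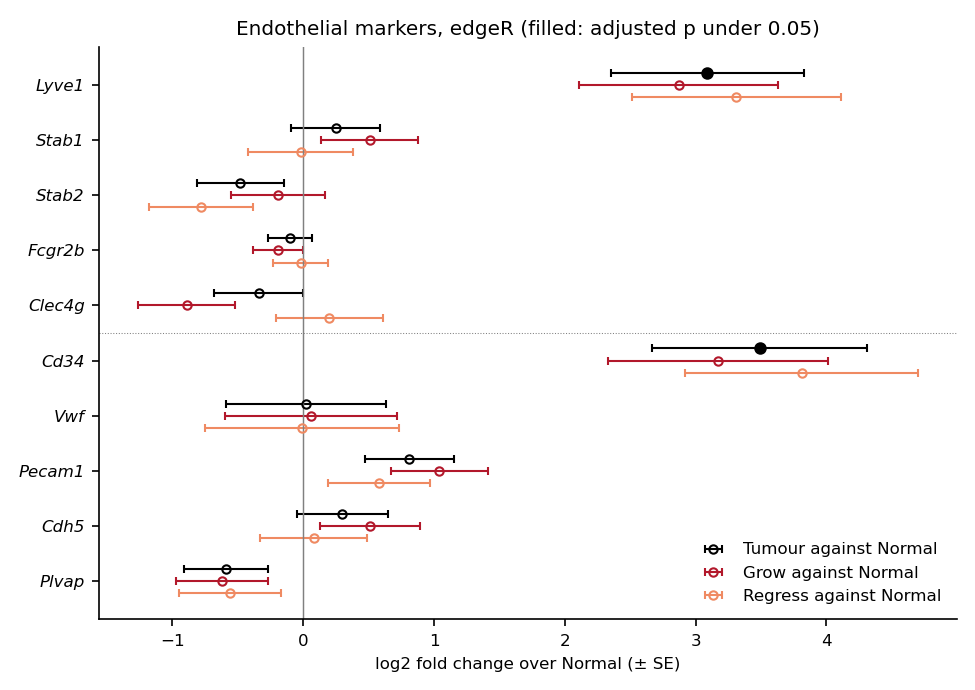
Log2 fold change (± SE, edgeR) of each marker in all tumours, growing tumours and regressing tumours over normal liver, with sinusoidal markers above the dotted line and continuous markers under it; filled circles passed an adjusted p of 0.05. Lyve1 and Cd34 lie between 2.87 and 3.81 in every comparison, and the other 8 markers lie between -0.89 and 1.04.

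The growing and regressing tumours were each also set against the same 4 normal livers, so these comparisons share their reference. In growing tumours 0 of the 10 markers were called at an adjusted p below 0.05, where 1.76% of all features were called. DESeq2 called 2, Lyve1 and Cd34, and 8.24% of all features, and 4 markers and 16.6% of all features had an unadjusted edgeR p below 0.05. Lyve1 (log2 fold change 2.87 ± 0.76, edgeR adjusted p = 0.0655), Cd34 (3.17 ± 0.84, 0.0655) and Pecam1 (1.04 ± 0.37, 0.146) lay higher in every growing tumour than in every normal liver, as did 5.27% of all features. Clec4g averaged 31.0 ± 8.58 CPM in growing tumours and 57.2 ± 12.9 CPM in normal liver (SD, n = 6 and 4), a log2 fold change of -0.89 ± 0.37 (edgeR adjusted p = 0.227). Without Regress 4, which enters this fit through the shared estimate of spread, Lyve1 (2.87, adjusted p = 0.0455), Cd34 (3.17, 0.0482) and Clec4g (-0.88, 0.0432) passed the threshold, as did 5.2% of all features. Without Regress 1, Lyve1 and Cd34 passed it, as did 4.69% of all features.

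In regressing tumours 0 of the 10 markers were called by edgeR, where 0.0244% of all features were called, and DESeq2 called 2, again Lyve1 and Cd34, and 5.79% of all features. These were also the 2 markers with an unadjusted edgeR p below 0.05, as had 16.2% of all features. The log2 fold changes were 3.31 ± 0.80 for Lyve1 (edgeR adjusted p = 0.0726) and 3.81 ± 0.89 for Cd34 (0.0642), and without Regress 1 both passed the threshold, as did 5.28% of all features. Stab2 averaged 20.5 ± 5.29 CPM in regressing tumours and 35.2 ± 8.90 CPM in normal liver (SD, n = 4 each), a log2 fold change of -0.78 ± 0.40 (edgeR adjusted p = 0.369).

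Regressing and growing tumours were compared directly, and no marker was called (0% of all features called, 10% of features, 1230, and 1 marker with an unadjusted edgeR p below 0.05), while DESeq2 called 31 features. The marker with an unadjusted p below 0.05 was Clec4g, which averaged 65.8 ± 33.1 CPM in regressing tumours and 31.0 ± 8.58 CPM in growing tumours (SD, n = 4 and 6), a log2 fold change of 1.09 ± 0.37 (edgeR unadjusted p = 0.01, adjusted p = 0.474). Without Regress 4 the log2 fold change was 1.40 and its adjusted p 0.0253, with 1249 features, 9.98% of those tested, called in that fit. Regress 4 also had the highest summed level of 12 stellate cell and fibroblast markers, 1090 CPM against 84.0 to 407 CPM in the other tumours, and the part of this in its Clec4g level was not tested. Lyve1 and Cd34 had log2 fold changes of 0.44 ± 0.64 and 0.64 ± 0.67 (edgeR adjusted p = 0.749 and 0.656). Both values move with the libraries used. Without Regress 1 they were 0.83 ± 0.52 and 1.05 ± 0.46 (edgeR adjusted p = 0.609 and 0.508). Among the 4 tumours given neither TMZ nor SAHA they were 1.70 ± 0.60 and 1.07 ± 0.74 (edgeR adjusted p = 1 for both).

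The drugs gave no edgeR call either. The 5 tumours given TMZ, alone or with SAHA, were compared with the 5 other tumours in a fit with the tumour label as a term, with 0% of all features called, while DESeq2 called 464 features. The DMSO, buffer and SAHA tumours make up the comparison group. Growing tumours had TMZ only together with SAHA, at 22 mg/kg, and regressing tumours had it only alone, at 31 mg/kg. The dose of TMZ and its use with SAHA are thus confounded with the tumour label. All 5 continuous markers and 4 of the 5 sinusoidal markers had a log2 fold change below 0, while 47.5% of all features lay above 0. Markers of the same cell type can vary together in bulk tissue, so their signs are not separate observations. Pecam1 averaged 15.1 CPM in tumours given TMZ and 23.4 CPM in the other tumours (-0.72 ± 0.31, edgeR unadjusted p = 0.0329, adjusted p = 0.315), and it was the 1 marker with an unadjusted p below 0.05, as had 13.9% of all features. Without Grow 2, which was high for many markers, Stab1 (-0.89, adjusted p = 0.0449) and Cdh5 (-1.04, adjusted p = 0.0366) passed the threshold, as did 737 features, 6.01% of those tested in that fit. Among growing tumours, the 4 given SAHA, 3 of them with TMZ, were set against the 2 given DMSO. edgeR called no feature (0%) and DESeq2 52, and no marker but 2.64% of all features had an unadjusted edgeR p below 0.05. Pecam1 lay lower in all 4 tumours given SAHA (mean 18.9 CPM) than in both given DMSO (27.2 CPM), with a log2 fold change of -0.52 ± 0.46 (edgeR adjusted p = 1), and 5.57% of all features lay lower in the same way.

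Ratios between markers within a library do not depend on how much endothelial RNA it holds, provided that both markers come from endothelium, so each marker was also expressed relative to Pecam1. These log2 ratios (prior count 2) are given as a description, with no test. The Plvap to Pecam1 ratio ran from -0.60 to 1.39 in the 10 tumours and from 1.60 to 2.08 in the 4 normal livers, without overlap. Every other marker's ratio to Pecam1 overlapped between tumours and normal liver. How many of all features would separate them in this way was not counted. Relative to Cdh5, Plvap ran from -0.26 to 1.07 in tumours and from 0.86 to 1.45 in normal liver, and these overlapped. The Stab2 ratio ran from -0.15 to 1.69 in tumours and from 1.15 to 2.10 in normal liver, and Regress 1 and Grow 2 were the tumours that reached the normal range. The Cd34 ratio ran from -3.88 to -0.07 in tumours and from -5.40 to -2.18 in normal liver, and the Lyve1 ratio from -2.29 to 0.64 and from -4.05 to -1.69, in the same order. The Cdh5 ratio, between a pair of junction genes, stayed within -0.35 to 0.49 in tumours and 0.31 to 0.77 in normal liver. Since every ratio has Pecam1 below the line, a higher Pecam1 lowers all of them together.

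**Figure D3:**
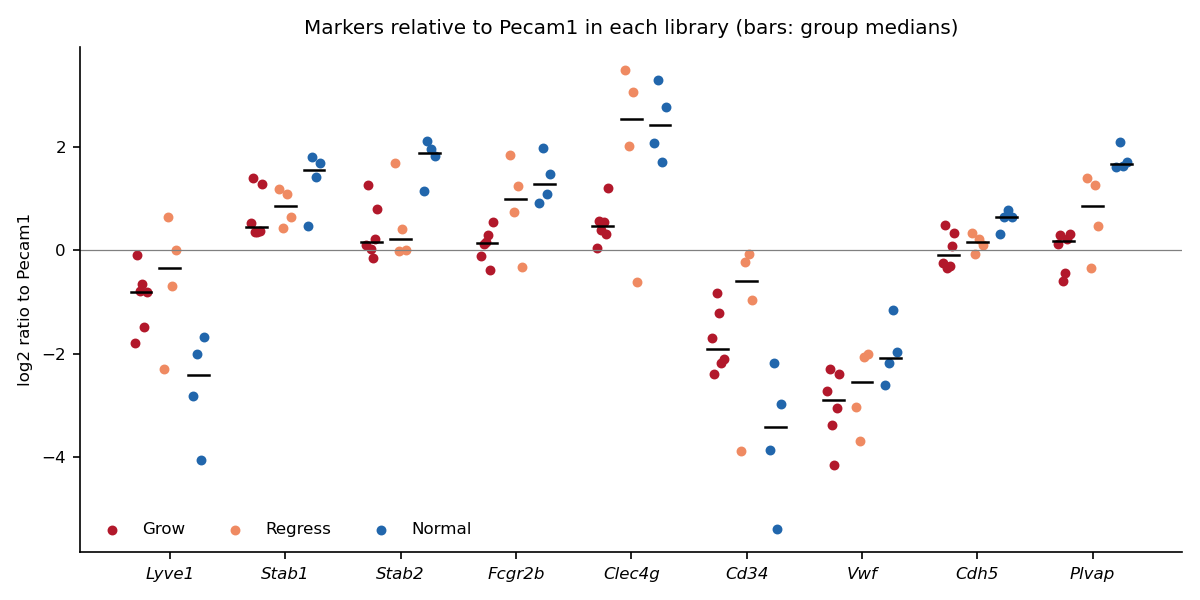
Log2 ratio of each other marker to Pecam1 in every library (prior count 2), with growing tumours, regressing tumours and normal livers from left to right for each gene and black bars at group medians. The Plvap ratio is lower in all 10 tumours than in all 4 normal livers, while the Lyve1 and Cd34 ratios are higher in most tumours. How many of all features would separate the groups as Plvap does was not counted.

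Tumours and normal liver also differed in the transcript rows of Pecam1, which were examined after their values had been seen. Exon 14 codes for part of the cytoplasmic tail that holds one of the tyrosine motifs to which phosphatases bind, and forms of Pecam1 without it are known in mouse endothelium. The authors' estimated counts gave the form without exon 14 a value of 0 in all 4 normal livers, where the gene had 80.7, 32.9, 79.7 and 69.3 estimated counts in Normal 1 to Normal 4. Counting error alone, from 3 counts of each total, would allow shares of up to 3.72, 9.12, 3.77 and 4.33%. That takes every count of the gene as able to tell the rows apart. Only reads at the difference can, so the true limits are higher, by an amount not known here. In the tumours this form had 581 of 1490 estimated counts, and it was present in 10 of 10.

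By library, the form without exon 14 made up 20.8% of Pecam1 at the lowest, 37.9% at the median and 62.2% at the highest of the growing tumours. In Regress 1 to Regress 4 it made up 56.7, 47.5, 100 and 29.0%, against 0% in each normal liver. In Regress 3 the row with exon 14 was at 0, with 41.5 estimated counts for the gene. The groups did not overlap, and Regress 1, which resembled normal liver in Lyve1 and Cd34, had one of the higher shares. The mean share was 46.6 ± 22.5% in tumours and 0% in normal liver (SD, n = 10 and 4). Without Regress 3 the mean in tumours was 40.6%. In the 4 tumours given neither TMZ nor SAHA it was 37.6%, against 0% in normal liver.

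In CPM, the row without exon 14 had 3.91 to 11.0 in tumours and 0 in normal liver, and the row with exon 14 had 0 to 20.8 in tumours and 5.76 to 14.2 in normal liver. The second row therefore covered the normal range (log2 fold change 0.00 ± 0.80, edgeR adjusted p = 1 over transcript rows), with means of 11.3 and 10.5 CPM. The row without exon 14 averaged 7.94 CPM in tumours and 0 in normal liver. Over all 14152 transcript rows tested with edgeR, 0.438% were called, among them the Pecam1 row without exon 14 (adjusted p = 0.00101). At 0 in every normal liver, that row passed the filter on low counts through the tumours. Neither this p-value nor those of the usage test hold the error of dividing reads between rows. edgeR's test of transcript usage called 0.236% of 2121 genes with several rows, 5 in all, and Pecam1 was one of them (adjusted p = 0.00257, and 0.000513 without Regress 3). Among 3777 rows of 1465 genes, each gene with at least 20 counts in every library, 8 rows (0.212%) had a share higher in every tumour than in every normal liver. Only the Pecam1 row and a row of Tgfbr2 were at 0 in every normal liver and at 5 counts or more in every tumour. Tgfbr2 is a receptor for transforming growth factor beta. No row showed the reverse, but that asks for 0 in all 10 tumours rather than in 4 normal livers. It is harder to meet, so the 2 counts cannot be set against each other. The first count copies the pattern already seen in Pecam1, and Tgfbr2 was found by it, after the values were seen.

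The rows differ by 57 bases, and the authors' quantifier divides reads between them by a model whose error is not in the deposited table. Values of exactly 0 or 100% in single libraries are its estimates. Pecam1 is also made by platelets and leukocytes. The summed level of 8 platelet and megakaryocyte markers was 3.88 to 7.90 CPM in tumours and 6.69 to 9.64 CPM in normal liver, and that of 5 pan-leukocyte markers was 40.4 to 106 CPM in tumours and 29.3 to 72.1 CPM in normal liver. None of the tested genes of either list was called, and their part in the Pecam1 rows was not tested.

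**Figure D4:**
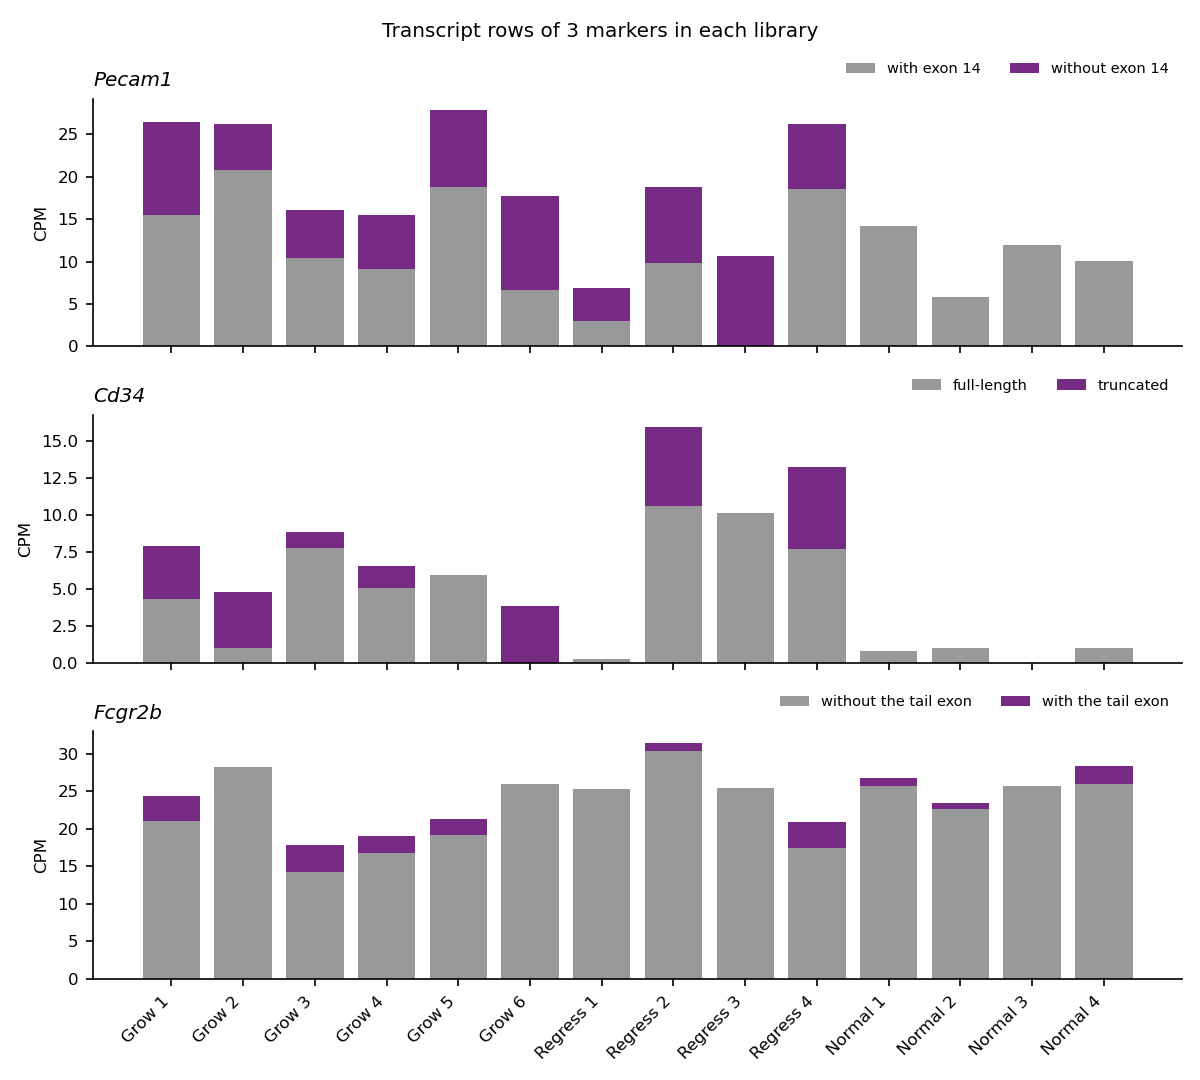
Level in CPM of the 2 transcript rows of Pecam1, Cd34 and Fcgr2b in each library, stacked, with tumours on the left and normal livers on the right. The Pecam1 form without exon 14 (purple) is present in all 10 tumours and at 0 in all 4 normal livers, and the truncated Cd34 form is present in 7 tumours.

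Cd34 and Fcgr2b showed no comparable call. The truncated Cd34 form, which lacks most of the cytoplasmic tail, was above 0 in 7 of 10 tumours (182 of 551 Cd34 counts over all tumours) and at 0 in all 4 normal livers. These hold only 16.9 Cd34 counts between them. By the same reckoning a count of 0 allows shares of up to 44.0% in Normal 4, the best measured of them. The true limit is again higher, since only reads at the difference tell the rows apart. Grow 6 had the truncated form alone, while Grow 5 and Regress 3 had the full-length form alone at 52.1 and 39.2 counts. Usage did not pass the threshold (edgeR adjusted p = 0.461). The Fcgr2b form with the tail exon is known from B cells and the form without it from macrophages and sinusoidal endothelium. The form with it made up 0 to 19.9% of Fcgr2b in tumours and 0 to 8.18% in normal liver (usage test adjusted p = 1). The 2 Fcgr2b rows also differ in the length of their last exon, 2484 bases with the tail exon and 543 bases without it.

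The other endothelial genes were taken from lists chosen with earlier results in view and are described by counts and medians beside all features (median log2 fold change 0.01, with 1.59% called higher and 0.732% lower). Calls in these lists share the limit of the marker calls, since leaving out Normal 3 left 0 features called in all. Counts above 0 and medians leave out genes that averaged less than the filter's cutoff of 1.63 CPM in tumours, in normal liver or in both. Those under it on 1 side passed the filter through the other, and those under it on both through single libraries above it. Of 13 tested genes of sinusoidal endothelium other than the markers, 0 were called and the median was -0.06. The pair of these genes with the widest differences were Rspo3, a Wnt signal amplifier released by central vein endothelium (2.19 CPM in tumours and 4.18 CPM in normal liver, -1.02 ± 0.51, edgeR adjusted p = 0.313), and Flt4, a receptor for vascular endothelial growth factors C and D (28.4 and 14.1 CPM in the same order, 0.75 ± 0.60, adjusted p = 0.615).

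Of 20 tested continuous and pan-endothelial genes other than the markers, 2 rose in tumours and 0 fell. Of the 14 above the cutoff on both sides, 11 had a log2 fold change above 0 (50.9% of all features did), with a median of 0.86. Icam2, an adhesion molecule of endothelium and leukocytes, had 2.82 to 6.72 CPM in tumours and 1.02 to 2.28 CPM in normal liver, with no overlap, as 1.09% of all features had in this direction (1.46 ± 0.32, edgeR adjusted p = 0.0363). Cav1, the coat protein of caveolae, had 1.38 to 23.1 CPM in tumours and 0.876 to 1.94 CPM in normal liver (2.61 ± 0.61, adjusted p = 0.0403), and Regress 1 was its lowest tumour. Without Regress 1 the Cav1 value was 2.78 ± 0.47 (edgeR adjusted p = 0.00585), with 7.84% of all features called, and without Normal 3 it was 2.73 ± 0.72 (adjusted p = 0.132). With each library left out in turn, Icam2 was called in 6 and Cav1 in 3 of 14 fits. Both averaged less than the cutoff in normal liver. Icam2 was called in growing tumours too (4.25 CPM against 1.52 CPM in normal liver, 1.48 ± 0.34, adjusted p = 0.0424). That call held in 3 of 14 fits with each library left out, and it shares its libraries with the comparison of all tumours.

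Of 10 tested tip cell and tumour vessel genes, which mark sprouting endothelium, 0 were called. The genes Apln, Aplnr, Esm1, Angpt2 and Cxcr4 averaged less than the cutoff in normal liver, and the other 5 had a median log2 fold change of 1.34. Of these, Nid2 and Lama4 are also counted among the basement membrane genes below, so the lists are not separate observations. Esm1, a proteoglycan secreted by tip cells, had 9.85, 18.4 and 38.2 CPM at the lowest, median and highest of the growing tumours. In the regressing tumours it ranged from 0 in Regress 1 to 45.9 CPM in Regress 2, against 0 to 1.23 CPM in normal liver. The log2 fold change of 4.58 ± 1.15 missed the threshold (edgeR adjusted p = 0.0515). Without Regress 1 it was 4.78 ± 0.87 (adjusted p = 0.0074), with 7.84% of all features called, and without Normal 3 it was 4.15 ± 1.23 (adjusted p = 0.16). Cxcr4, a chemokine receptor of tip cells and leukocytes, averaged 4.65 CPM in tumours and 1.51 CPM in normal liver (1.66 ± 0.68, adjusted p = 0.212).

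Of 16 tested angiogenic ligands and receptors, 1 fell and 0 rose, with a median of 0.03 over 14. Gdf2, also known as BMP9, is made by stellate cells and keeps endothelium quiescent. It had 1.61, 2.38 and 5.73 CPM at the lowest, median and highest of the growing tumours and 5.93 to 12.7 CPM in regressing tumours, against 11.7 to 19.1 CPM in normal liver. Its log2 fold change was -1.55 ± 0.30 in all tumours (edgeR adjusted p = 0.029) and -2.37 ± 0.34 in growing tumours (adjusted p = 0.0121). Gdf2 was called in 11 of 14 fits with each library left out for all tumours, and in 13 of 14 for growing tumours. Of the 12 stellate cell and fibroblast markers, 1 fell and 0 rose in growing tumours, where 0.642% of all features were called lower and 1.12% higher. Over all 12, 6 had a log2 fold change above 0, and the median over all features there was 0. Unlike the other counts, this one includes genes under the cutoff, Col1a1 and Acta2, which averaged less than it in normal liver. The one that fell was Dcn, a matrix proteoglycan (43.3 CPM in growing tumours and 222 CPM in normal liver, -2.36 ± 0.39, adjusted p = 0.0178). The summed level of the list was 84.0 to 145 CPM in growing tumours and 202 to 408 CPM in normal liver, and without Dcn it was 55.8 to 95.2 and 69.9 to 114 CPM in the same order. The part of these cells in the Gdf2 level was not tested. Fgf1 lay lower in every tumour than in every normal liver (39.6 and 81.3 CPM, -1.09 ± 0.30) without passing the threshold (adjusted p = 0.0703), as did 0.935% of all features.

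Basement membrane genes code for laminins, collagen IV and nidogens, which normal sinusoids largely lack. Of 13 tested, 0 were called. Of the 12 above the cutoff on both sides, 10 had a log2 fold change above 0, with a median of 0.62. Nid1, a nidogen that links laminin to collagen IV, had 3.74 to 361 CPM in tumours and 6.84 to 10.4 CPM in normal liver (4.08 ± 1.19, edgeR adjusted p = 0.0777). Lama5, a laminin chain, had 0.197 to 27.0 CPM in tumours and 0.351 to 2.24 CPM in normal liver (3.20 ± 1.11, adjusted p = 0.133). Regress 1 was the lowest tumour for both genes, as it was for Lyve1 and Cd34. Without it Nid1 had 4.28 ± 1.05 (edgeR adjusted p = 0.0267) and Lama5 3.39 ± 0.99 (adjusted p = 0.0545), with 7.84% of all features called. Without Normal 3 they had 4.16 ± 1.41 (adjusted p = 0.204) and 3.95 ± 1.35 (adjusted p = 0.208), with 0 features called. Lama5 averaged less than the cutoff in normal liver.

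**Figure D5:**
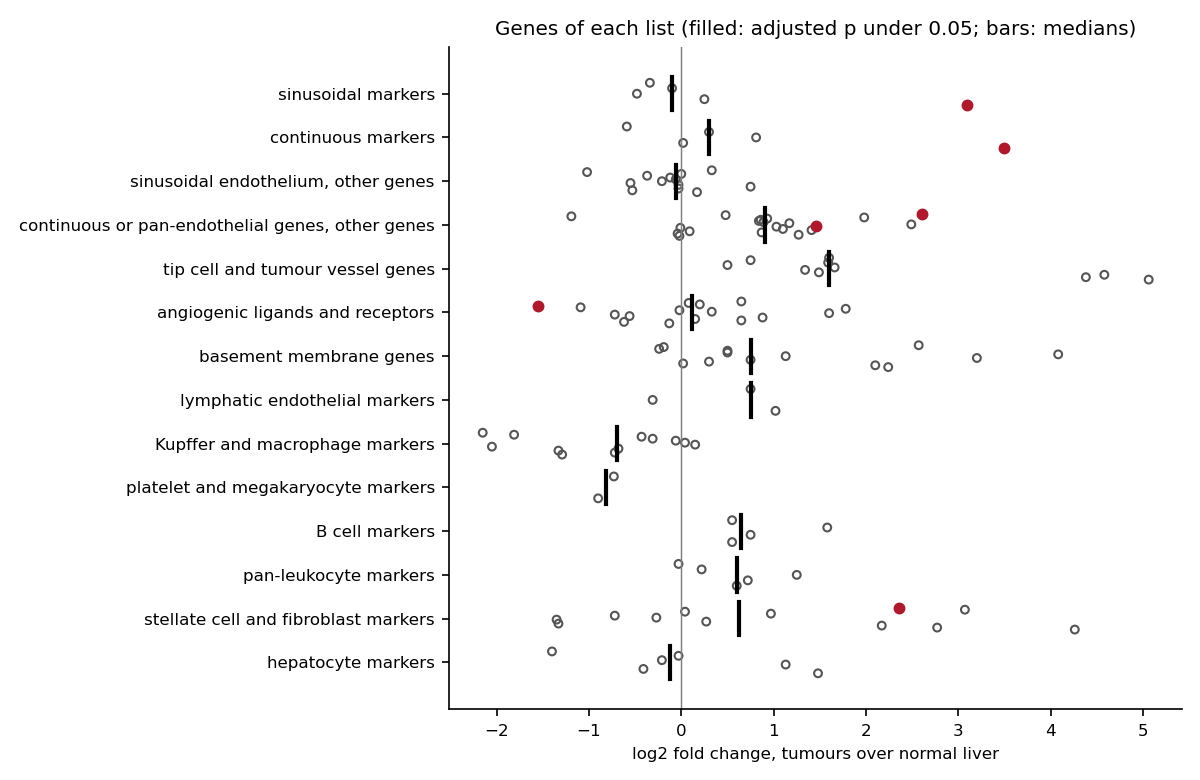
Log2 fold change of tumours over normal liver for every tested gene (circles) of the endothelial lists and of the lists for other liver cell types, with black bars at the medians of all tested genes of a list and filled circles for genes at an adjusted p under 0.05. Other sinusoidal genes scatter around 0, and of the 10 tip cell and tumour vessel genes, 5 averaged less than 1.63 CPM in normal liver.

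Other cell types that make some of these markers were followed alongside. Lyve1 is also made by lymphatic endothelium and by some resident macrophages. Of the 6 lymphatic markers, 3 passed the filter and 0 were called (median 0.75), and Ccl21a, a chemokine that defines lymphatic endothelium, was at 0 in all 14 libraries. Reln, a secreted glycoprotein also made by stellate cells, had 13.4 to 258 CPM in tumours and 21.2 to 46.2 CPM in normal liver (1.02 ± 0.75, edgeR adjusted p = 0.568). The summed level of the 6 was 34.9 to 333 CPM in tumours and 49.4 to 117 CPM in normal liver. Pdpn, Ccl21a and Mmrn1 did not pass the filter, so this sum rests mainly on Reln, Prox1 and Flt4. The median is the value of Flt4, which is also listed above among the sinusoidal genes. Neither the sum nor the median thus measures lymphatic endothelium alone. Of 12 Kupffer and macrophage markers 0 were called, the median over 10 was -0.56, and the sum was 112 to 987 CPM in tumours and 420 to 1190 CPM in normal liver. Marco, a scavenger receptor, averaged 7.39 CPM in tumours and 21.0 CPM in normal liver (-2.05 ± 0.92, edgeR adjusted p = 0.253). Timd4, a receptor for dying cells, averaged 10.7 CPM in tumours and 26.7 CPM in normal liver (-1.33 ± 0.65, adjusted p = 0.301).

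Cd34 is also made by fibroblasts. Of the 12 stellate cell and fibroblast markers 1 rose in all tumours, Tagln, an actin-binding protein of contractile cells (3.20 to 60.8 CPM in tumours and 2.09 to 3.69 CPM in normal liver, 2.36 ± 0.54, edgeR adjusted p = 0.0397), and the median over 10 was 0.16. Tagln was called in 6 of 14 fits with each library left out. Col1a1, a chain of collagen I, averaged 22.7 CPM in tumours and 0.812 CPM in normal liver (4.26 ± 1.30, adjusted p = 0.0909), with 186 CPM in Regress 4. The part of macrophages, lymphatic vessels and fibroblasts in the Lyve1 and Cd34 levels was not tested.

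The remaining lists held no call. The 4 tested B cell markers all averaged less than the cutoff in normal liver, and Ms4a1 and Cd79a did so in tumours too. The 5 pan-leukocyte markers had a median of 0.60, with Coro1a, an actin regulator of leukocytes, at 13.3 CPM in tumours and 5.56 CPM in normal liver (1.25 ± 0.46, edgeR adjusted p = 0.159). Cd52, a leukocyte surface peptide, differed by 0.72 ± 0.51 (adjusted p = 0.553). Only 2 of 8 platelet markers were tested, among them Itgb3, an integrin chain also found on endothelium (2.59 CPM in tumours and 4.31 CPM in normal liver, -0.73 ± 0.36, adjusted p = 0.311). The 6 hepatocyte markers had a median of -0.12, with Alb, the plasma protein albumin, at 1.48 ± 0.58 (adjusted p = 0.184) and Cps1, the first enzyme of the urea cycle, at -1.40 ± 0.69 (adjusted p = 0.308). Their summed level varied widely, from 39200 CPM in Grow 3 to 229000 CPM in Grow 6 among tumours, against 52100 to 78400 CPM in normal liver.

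The genes whose pattern over the 14 libraries was most like that of a marker were ranked by the root mean square difference of mean-centred log2 CPM. Lyve1 and Cd34 were close to each other at 0.74, and each was among the 4 genes most like the other. Around Lyve1 stood Adgrf1 (0.73), Ccnd1 and Mtmr11 (0.74 each), and around Cd34 stood Ttc39a and Tmem71 (0.70 each) and Ubtd2 (0.74). The other endothelial markers stood at 1.19 (Pecam1) to 2.03 (Clec4g) from Lyve1. Their SDs ran from 0.22 for Fcgr2b to 0.95 for Vwf, against 1.68 for Lyve1. Such a gap in spread alone sets them at a distance, so these values do not compare patterns. For Stab2 the nearest genes were Sik3 (0.19), Tsc1 (0.21), Esrp2 (0.22) and Sidt2 (0.23), and Stab1 stood at 0.44. For Plvap they were Itgb3 (0.25), Spns2 (0.30), Itih3 (0.31) and Pcsk7 (0.34).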

How the data were processed

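Total RNA from snap-frozen tissue was made into unstranded TruSeq libraries, per the labels' protocols. The deposited table holds the authors' estimated counts per RefSeq transcript, not normalized. Salmon 0.3.1, edgeR 3.14.0 and mm9 are named in the submitters' processing notes. Of 35230 rows, 26081 matched a mouse symbol through RefSeq and 144 through GENCODE, and 9005 rows (3.52 to 12.1% of counts) stayed unnamed as features of their own. Of the table's columns, 1 further column, which holds no values, was not used. Rows were summed per symbol and rounded.

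Counts were tested with edgeR 4.0.16 (R 4.3.3): TMM, filterByExpr by group, robust quasi-likelihood fit over all 14 libraries, Benjamini-Hochberg threshold 0.05. Growing and regressing tumours weigh equally in all tumours against normal liver. The common biological coefficient of variation was 0.484. SE is the log2 fold change over the root of F. CPM uses TMM-scaled library sizes. Same-numbered samples did not vary together (correlations of deviations -0.52 to 0.20), so numbers were not taken as pairs. In simulated data (12054 genes) the tumour comparison recovered 10.8, 73.4 and 91.9% of genes changed by 1, 2 and 4 log2 units. The usage test recovered 100% of 100 changed genes, but 10.7% of its calls were false (2095 genes). Those genes were given a large change in share, and no error in dividing reads between rows was simulated. Alternatives were DESeq2 1.42.0, limma-voom (limma 3.58.1), other scaling, filters, left-out libraries, a replicate block and a length correction. Leaving out genes under the cutoff on 1 or both sides, single libraries for list genes and Dcn from its list's sum, like the transcript rows, were added after values had been seen.

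The markers and gene lists were chosen with earlier results of these data known. From each list the text names every gene called in tumours against normal liver (up to 6). Where fewer than 2 were called, it adds the widest log2 fold changes among genes averaging log2 CPM 1 or more, to 2 in all. Dcn and Tgfbr2 fall outside this rule and were chosen after their values were seen. Likeness was ranked among genes averaging log2 CPM 1 or more whose SD was 0.75 of the marker's or above.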

Additional observations from a re-analysis of the deposited data

Results flagged for a closer look

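Lyve1 stood at 24.6 CPM in Grow 2, far from the other 5 growing tumours, which lay between 7.40 and 9.96 CPM. The gap to the nearest of them was 0.851 of the group's whole range. This was 1 of 30 marker and group combinations examined, where chance alone singles out about 1 in 20. Grow 2 also had the highest Stab1 (70.0 CPM), Stab2 (63.2 CPM) and Cdh5 (37.2 CPM) of all tumours.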

How the results depend on the processing

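Over 24 alternatives the log2 fold change of tumours over normal liver stayed between 2.77 and 3.57 for Lyve1 (adjusted p 0.000111 to 0.237) and between 3.07 and 3.84 for Cd34 (adjusted p 8.76e-05 to 0.367), and 17 and 16 of them, in that order, ended the call. The number of the 10 markers called there, 2 in the reported fit, was 0 under limma-voom, 0 with Grow 3 and Grow 4 summed, 0 with Normal 4 and Regress 2 left out, 1 with no filter on low counts, and 0 to 2 with each library left out in turn. It was 0 with the replicate block too (Lyve1 2.94, adjusted p = 0.208; Cd34 3.60, adjusted p = 0.244), and the numbers do not pair the samples. For growing and for regressing tumours against normal liver the number called was 2 under DESeq2, 2 without tumours given TMZ or SAHA and 2 after removing a trend with transcript length. All features called there, 217 and 3 in the reported fits, numbered 1014 and 712, 488 and 511, and 533 and 171 in these settings. With each library left out the number of markers called was 0 to 3 for growing tumours, 0 to 2 for regressing tumours, 0 to 1 for regressing against growing tumours and 0 to 2 for TMZ. All features called then numbered 4 to 651, 0 to 667, 0 to 1249 and 0 to 737, in the same order. All features called in tumours against normal liver, 285 in the reported fit, numbered 1055 under DESeq2, 127 under limma-voom, 0 with the block, 641 after the length correction, 941 without drugged tumours, 0 without Normal 4 and Regress 2, and 0 to 991 with each library left out. The mean share of the Pecam1 form without exon 14 was 40.6 to 49.4 percentage points higher in tumours with each library left out. The cause of these shifts was not tested. Of 1420 values of single markers under alternatives, 1275 kept their sign and call, 33 lost a call, 22 gained one, 90 that were not called changed sign, and no called value did. TMZ and SAHA could not be compared without the tumours given them.

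Depth limits Cd34, Vwf and, in normal liver, Lyve1 and the transcript shares of Cd34, which rest on few counts. Growing or regressing was labelled without a stated rule, the drugs are unevenly spread over both labels, and whole tissue cannot separate endothelial number from level per cell. Estimated counts split near-identical transcripts by a model.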
